A study of Homo sapiens with 11 samples.

Results

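Collagen and laminin genes encode the chains of the main structural proteins of the extracellular matrix. They were chosen by symbol alone, as the rows named COL, a number, A and a number, or LAM with A, B or C and a number. The rule found 55 genes, 43 for collagens and 12 for laminins, among the 31325 gene symbols measured. Expression was measured 48 h after transfection, by the sample labels, while the text of the series gives 24 h. There were 4 groups. The cells were MDA-MB-231, grown from a breast carcinoma, and SKOV3, grown from an ovarian carcinoma and named in the paper as the derivative SKOV3.ip1. Each line was transfected with the miR-365a-3p mimic or, as its comparison, with control miRNA. Each group had 3 arrays, except the SKOV3 controls, which had 2. Nothing in the labels says that the replicates were separate cultures, so a p-value measures only the spread between these arrays, and each line is 1 model of its tumor type.

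A collagen molecule is a triple helix of alpha chains, and fibrillar collagens such as types I and V build fibers, while type IV forms the sheet of the basement membrane. A laminin is a cross-shaped trimer of 1 alpha, 1 beta and 1 gamma chain that anchors epithelial cells to that sheet through integrins and dystroglycan. Carcinoma cells can make both, and fibroblasts make most of the fibrillar collagen of a tumor. A miRNA lowers the mRNAs that pair with its seed, which is bases 2 to 8 from its 5′ end. The mature strand that was transfected is shown because its seed defines the perturbation. It has 22 bases and is taken from RefSeq (GRCh38.p14, chr16:14309340-14309361, plus strand), with the seed in capitals.

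hsa-miR-365a-3p: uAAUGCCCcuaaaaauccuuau

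No transcript sequence was searched for sites that pair with this seed, so which of the genes are direct targets was not tested.

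The values are log2 signals of Illumina BeadChips, 1 per gene symbol and array, quantile normalized across the 11 arrays. Differences were tested with limma over all 31325 genes, and a Benjamini-Hochberg adjusted p under 0.05 was called. Most rows lie at a floor a little above 7, a group mean under 8 is called dim here, and a fall that reaches the floor is understated. As a check of the transfection, HDAC4, a histone deacetylase that the paper names as a target, changed by -1.08 in the MDA-MB-231 line and by -0.75 in the SKOV3 line on the log2 scale (limma adjusted p = 9.16e-05 and 0.00208). Since 11.7% and 7.11% of all genes fell in these lines, the fall of this 1 gene is a limited check. ERBB2, which is amplified in SKOV3 cells, had a control mean of 10.86 there and 7.61 in MDA-MB-231 cells, and PAX8 and KRT8 were also higher in SKOV3 controls, while KRT7 and KRT18 were not called (limma adjusted p = 0.245 and 0.729). Of the MDA-MB-231 markers, VIM and CD44 were not called between the controls (limma adjusted p = 0.931 and 0.0609). EGFR was higher in MDA-MB-231 controls (limma adjusted p = 0.00117) but dim in both lines, with control means of 7.86 there and 7.63 in SKOV3 cells. Line markers moved with the treatment too, with changes of -1.57 for ERBB2 and -0.70 for PAX8 in SKOV3 cells and, in MDA-MB-231 and SKOV3 cells, of -2.52 and -1.43 for CD44 and 0.98 and 1.27 for KRT7 (limma adjusted p under the threshold for each). Of the fibroblast markers DCN, LUM, PDGFRA, PDGFRB and FAP, 5 of 5 were dim on the control arrays of both lines, as were 3 of 3 endothelial and 4 of 4 leukocyte markers. The summed level of the fibroblast list was 36.42 to 36.76 in MDA-MB-231 controls, 36.74 to 37.37 with miR-365a-3p, 36.66 to 36.73 in SKOV3 controls and 37.36 to 38.09 with miR-365a-3p. Within it, LUM rose by 0.50 and 0.72 in MDA-MB-231 and SKOV3 cells (limma adjusted p = 0.0489 and 0.0282) to a mean of 8.17 in the latter, and PDGFRB changed by -0.09 in MDA-MB-231 cells (limma adjusted p = 0.0186). Their part in the changes of the collagens was not tested. In whole-culture RNA, fewer cells of a type and less RNA per cell cannot be told apart.

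A property of the arrays moved with the treatment. The median of 162 mRNAs of small proteins minus that of 10 mRNAs of large proteins was between 1.22 and 1.89 on the MDA-MB-231 control arrays and between 3.71 and 3.79 with miR-365a-3p. On the SKOV3 side, it was 2.36 and 2.47 on the control arrays and between 3.59 and 3.80 with miR-365a-3p. Many collagens and laminins are long chains with long mRNAs, although COL8A1 is a short-chain collagen. Lengths were not compared here, and the part of this balance in the changes of these genes was not tested. The SKOV3 array with miR-365a-3p replicate 1 read lowest of its group for 11 of the 16 genes with a group mean of 8 or more, against 2 and 3 genes for the other two arrays. Values without it are given where it decides a call of these genes.

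No collagen or laminin gene was called as raised by miR-365a-3p in either line, and about 1 gene in 4 fell. In MDA-MB-231 cells, 14 of the 55 genes (25.5%) fell, against 11.7% of all genes tested, and 0 rose, against 14.4%. In SKOV3 cells, 16 of the 55 (29.1%) fell, against 7.11% of all genes, and 0 rose, against 7.25%. On the deposited values, without the further normalization, 16 and 20 of the 55 fell, against 17.9% and 14.0% of all genes, and 0 rose in either line, against 7.26% and 3.83% of all genes. The background for rises thus depended on the scaling. Fewer of the 55 fell in SKOV3 cells without SKOV3 control replicate 1 or 2, which leaves 1 control array. The share of all genes in those fits was not counted.

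The genes called in both lines were COL1A1, COL5A1, COL7A1, COL12A1, LAMA5, LAMB1, LAMB2, LAMB3 and LAMC1. These are 9 of 55 (16.4%), against 5.39% of all genes (1689). The median log2 fold change of all 55 genes was -0.01 in the MDA-MB-231 line and -0.03 in the SKOV3 line, with most members at the floor, against 0.01 for all genes in either line. The share called also differed with signal. Among all 6853 genes with a mean over 8 across the arrays, 26.2% fell in the MDA-MB-231 line and 15.3% in the SKOV3 line. Of the 10 collagen and laminin genes above that mean, 9 and 6 fell, which is a description only.

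**Figure D1:**
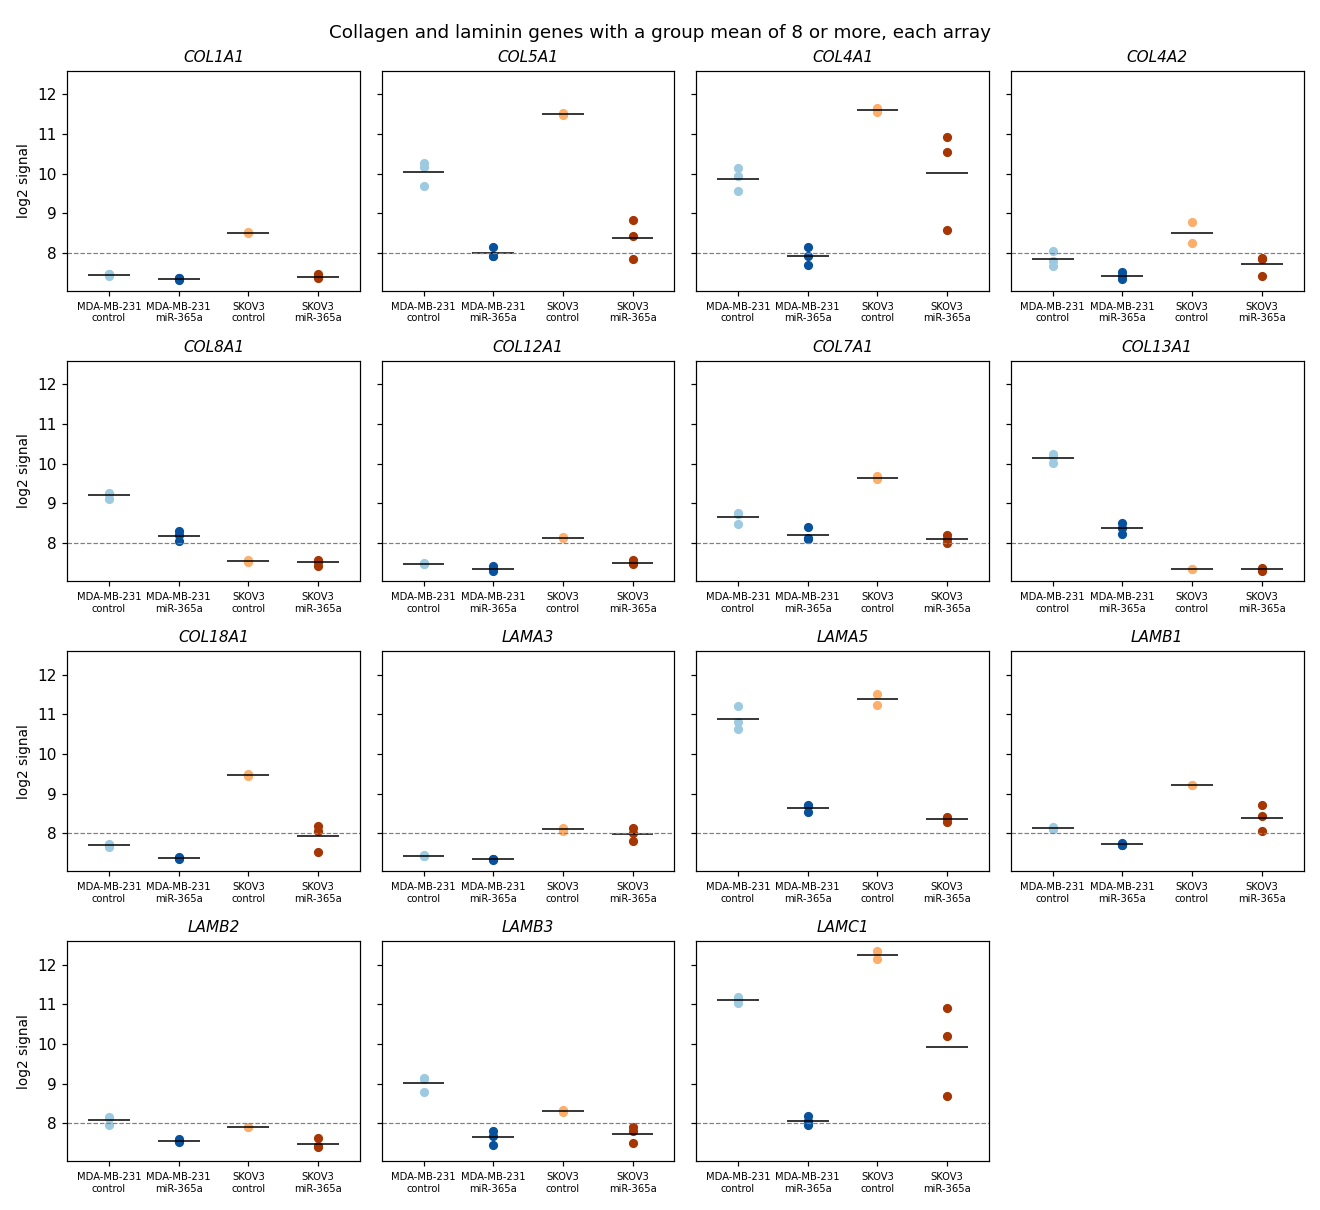
Log2 signal on each array (vertical axis, points) for 15 of the 16 collagen and laminin genes with a mean of 8 or more in at least 1 group, by cell line and treatment (horizontal axis); black lines are group means and the dashed line marks 8. COL5A1, LAMA5 and LAMC1 stand far above the line on the control arrays of both lines and drop with miR-365a-3p, while COL13A1 and COL8A1 are above it only in MDA-MB-231 cells.

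Of the 12 laminin genes, 5 fell in the MDA-MB-231 line and 6 in the SKOV3 line, against 11.7% and 7.11% of all genes. Among all genes with a mean over 8 across the arrays, the shares were 26.2% and 15.3%. LAMC1 encodes the gamma-1 chain, which most laminin trimers contain. In MDA-MB-231 cells, it read 11.19, 11.12 and 11.04 on the control arrays and 8.07, 7.96 and 8.20 with miR-365a-3p, so that the groups were far apart. The log2 fold change was -3.05 (limma adjusted p = 0.00134, standard error 0.46). In SKOV3 cells, it read 12.34 and 12.13 on the control arrays and 8.68, 10.92 and 10.21 with miR-365a-3p. Here too the groups did not overlap, but replicate 1 lay well below the other miR-365a-3p arrays. The log2 fold change was -2.30 (limma adjusted p = 0.0175, standard error 0.51) and, without that replicate, -1.67 (limma adjusted p = 0.00174). The call in SKOV3 cells was lost with that line fitted alone (limma adjusted p = 0.145) and with a replicate block (limma adjusted p = 0.0795). Without control replicate 1 or 2, which leaves 1 control array, the change was -2.2 or -2.4 and lost its call too.

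LAMA5 encodes the alpha-5 chain, a main laminin alpha chain of adult epithelial basement membranes. In MDA-MB-231 cells, it read 10.63, 10.80 and 11.21 on the control arrays and 8.71, 8.53 and 8.69 with miR-365a-3p. In SKOV3 cells, it read 11.50 and 11.24 on the control arrays and 8.39, 8.40 and 8.28 with miR-365a-3p. The miR-365a-3p arrays of both lines were close together and far below the controls. The log2 fold changes were -2.24 in the MDA-MB-231 line (limma adjusted p = 1.61e-05, standard error 0.14) and -3.01 in SKOV3 cells (limma adjusted p = 1.16e-05, standard error 0.15). This call held in both lines in each of the 20 alternative fits.

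Of the 4 beta chains, 3 fell in each line, which stands beside the same shares of all genes. LAMB3, the beta-3 chain of the laminin that holds epithelial hemidesmosomes, read 8.79, 9.12 and 9.13 on the MDA-MB-231 control arrays and 7.46, 7.69 and 7.81 with miR-365a-3p. It changed by -1.36 in the MDA-MB-231 line (limma adjusted p = 0.00017) and by -0.57 in SKOV3 cells (limma adjusted p = 0.0386), where the call was kept in 11 of 20 alternative fits. It was lost with the SKOV3 line fitted alone (limma adjusted p = 0.086). It was lost without SKOV3 miR-365a-3p replicate 1, at -0.44, or 2 (limma adjusted p = 0.086 and 0.0528). The same held without MDA-MB-231 miR-365a-3p replicate 2 or control replicate 2 or 3 (limma adjusted p = 0.0641, 0.0514 and 0.0509). Without SKOV3 control replicate 1 or 2, which leaves 1 control array, the change was -0.54 or -0.59 and lost its call too. LAMB2 changed by -0.53 and -0.41 (limma adjusted p = 0.000457 and 0.00569). Its control and miR-365a-3p means were 8.09 and 7.56 in MDA-MB-231 cells. They were 7.90 and 7.49 in SKOV3 cells, so LAMB2 was dim in both groups there. Its SKOV3 call was lost without control replicate 2 (limma adjusted p = 0.0538). LAMB1, the beta-1 partner of LAMC1 in many trimers, read 9.22 and 9.22 on the SKOV3 control arrays and 8.06, 8.71 and 8.43 with miR-365a-3p. It changed by -0.82 in SKOV3 cells (limma adjusted p = 0.00627), but the call was lost with that line fitted alone (limma adjusted p = 0.0895). Without control replicate 2, which leaves 1 control array, the gene changed by -0.82 and lost its call too. In MDA-MB-231 cells it changed by -0.42, where the call (limma adjusted p = 0.0451) was kept in 8 of 20 alternative fits.

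LAMA3, the alpha-3 chain that pairs with LAMB3, was not called. It read 8.07 and 8.13 on the SKOV3 control arrays and 7.81, 8.01 and 8.12 with miR-365a-3p, and the groups overlapped. The difference was -0.12 with a 95% interval from -0.28 to 0.05, and it was -0.41 on the deposited values (limma adjusted p = 0.0273) and -0.37 after median centring (limma adjusted p = 0.0425). In MDA-MB-231 cells the gene was dim, with a control mean of 7.44, so a fall of the size of LAMB3 could not have been read. Whether the changes of LAMA3 and LAMB3 differed from each other was not tested.

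Of the fibrillar collagens, 2 of 11 fell in MDA-MB-231 cells and 3 of 11 in SKOV3 cells, against 11.7% and 7.11% of all genes, with medians of 0.004 and -0.006 on the log2 scale. COL5A1, the alpha-1 chain of type V, which starts and limits the growth of type I fibers, was among the genes that fell in both lines. It read 9.68, 10.18 and 10.27 on the MDA-MB-231 control arrays and 7.93, 7.93 and 8.15 with miR-365a-3p. In SKOV3 cells, it read 11.53 and 11.48 on the control arrays and 7.85, 8.84 and 8.43 with miR-365a-3p. All miR-365a-3p arrays were thus below all controls of their line. The log2 fold changes were -2.04 (limma adjusted p = 0.000395, standard error 0.24) and -3.13 (limma adjusted p = 0.000163, standard error 0.27), and the difference between the lines was not called (limma adjusted p = 0.209).

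COL1A1 encodes the alpha-1 chain of type I collagen, the most abundant collagen of connective tissue. It read 8.50 and 8.52 on the SKOV3 control arrays and 7.39, 7.36 and 7.47 with miR-365a-3p, a fall to the floor. The log2 fold change was -1.11 (limma adjusted p = 1.42e-06, standard error 0.033). In MDA-MB-231 cells, where it was dim on all arrays, the change was -0.10 and kept its call in 7 of 20 alternative fits. COL1A2, its partner chain, was dim in every group and changed by -0.31 in SKOV3 cells (limma adjusted p = 0.000806) and by 0.004 in MDA-MB-231 cells. COL3A1, which fibroblasts make with type I collagen, had group means between 7.31 and 7.33.

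The chains of type IV collagen are encoded in head-to-head gene pairs. In RefSeq (GRCh38.p14), the start sites of COL4A1 and COL4A2 are 127 bases apart, those of COL4A3 and COL4A4 are 419 bases apart and the nearest start sites of COL4A5 and COL4A6 are 380 bases apart. The stretch between the first pair is shown because both genes are read from it and both had lower means with miR-365a-3p. It lies at chr13:110307158-110307283 (plus strand, 126 bases), its GC content is 80.2%, and the capitals mark the motifs CCAAT and GGGCGG, searched on both strands.

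COL4A1 and COL4A2: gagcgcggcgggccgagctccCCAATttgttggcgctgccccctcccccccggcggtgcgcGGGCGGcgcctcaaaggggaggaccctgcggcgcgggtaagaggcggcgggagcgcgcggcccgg

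Each motif occurs 1 time in this stretch. In windows of the same length before all 35116 listed start sites, 21.1% held CCAAT and 34.6% held GGGCGG on either strand, so neither motif is rare.

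COL4A1 and COL4A2 encode the chains of the most widespread type IV molecule. COL4A1 read 10.13, 9.55 and 9.94 on the MDA-MB-231 control arrays and 7.70, 7.93 and 8.16 with miR-365a-3p. The log2 fold change was -1.94 (limma adjusted p = 0.0223, standard error 0.52). The call was lost when miR-365a-3p replicate 1 or 2 or control replicate 1 or 3 of this line was left out (limma adjusted p = 0.074, 0.0618, 0.071 and 0.0671), and with a replicate block (limma adjusted p = 0.0583). The SKOV3 control arrays read 11.66 and 11.56, and those with miR-365a-3p read 8.58, 10.92 and 10.55, so that replicate 1 stood apart. The change of -1.59 was not called (limma adjusted p = 0.116). Without that replicate it was -0.87, and it was called (limma adjusted p = 0.0363), as it was without miR-365a-3p replicate 2, at -2.04 (limma adjusted p = 0.0401). With all arrays kept, it was called with an intensity trend, at -1.59, and with array weights, at -1.22 (limma adjusted p = 0.0256 and 0.0274). In the other 16 of 20 alternative fits it was not called.

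COL4A2 read 8.24 and 8.78 on the SKOV3 control arrays and 7.42, 7.85 and 7.88 with miR-365a-3p. The change was -0.79 (limma adjusted p = 0.0243). The call was lost with the SKOV3 line fitted alone (limma adjusted p = 0.127) and without miR-365a-3p replicate 1, at -0.65 (limma adjusted p = 0.0545). Without control replicate 2, which leaves 1 control array, the gene changed by -0.53 and lost its call too. In MDA-MB-231 cells, its change was -0.42 and not called (limma adjusted p = 0.117), although no miR-365a-3p array reached a control array. It was called in 5 of 20 alternative fits, which were the deposited values, median centring, the line alone, an intensity trend and a replicate block (limma adjusted p = 0.0318, 0.0401, 0.0385, 0.0348 and 0.0086). Of the other pairs, COL4A5 was dim in every group, with a control mean of 7.79 for the MDA-MB-231 line against 7.32 for the SKOV3 line, and COL4A6 had group means between 7.28 and 7.32.

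Among the network collagens outside type IV, COL8A1, a short-chain collagen of vessel walls and the eye, read 9.27, 9.11 and 9.23 on the MDA-MB-231 control arrays and 8.06, 8.20 and 8.31 with miR-365a-3p. It changed by -1.02 in MDA-MB-231 cells (limma adjusted p = 2.88e-05, standard error 0.070). In SKOV3 cells it was dim in both groups and the difference was -0.04, with a 95% interval from -0.21 to 0.14.

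COL13A1 encodes a transmembrane collagen of cell adhesion sites. It read 10.17, 10.24 and 10.02 on the MDA-MB-231 control arrays and 8.24, 8.39 and 8.50 with miR-365a-3p, a log2 fold change of -1.76 (limma adjusted p = 2.66e-06, standard error 0.071). It was at the floor on all SKOV3 arrays, between 7.29 and 7.38. COL17A1, the transmembrane collagen of hemidesmosomes, was dim in every group. It changed by -0.34 in MDA-MB-231 cells (limma adjusted p = 0.00712). In SKOV3 cells the difference was 0.28 and not called (limma adjusted p = 0.0518), although 6 of 20 alternative fits called it.

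The next 3 genes, an anchoring, a multiplexin and a FACIT collagen, changed more in SKOV3 cells by the test of the difference given further on. COL7A1, the collagen of the fibrils that anchor the epidermal basement membrane, read 9.69 and 9.62 on the SKOV3 control arrays and 8.10, 8.21 and 8.01 with miR-365a-3p. It changed by -1.54 (limma adjusted p = 7e-05, standard error 0.11). In MDA-MB-231 cells, it read 8.48, 8.75 and 8.76 on the control arrays and 8.40, 8.13 and 8.11 with miR-365a-3p. The groups nearly touched, with a change of -0.45 (limma adjusted p = 0.00974) that was not called with a replicate block (limma adjusted p = 0.0813).

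COL18A1, whose C-terminal fragment is endostatin, read 9.44 and 9.50 on the SKOV3 control arrays and 7.53, 8.19 and 8.05 with miR-365a-3p. The log2 fold change was -1.55 (limma adjusted p = 0.000387, standard error 0.16), and -1.35 without replicate 1. In MDA-MB-231 cells it was dim, and its difference of -0.32 was not called (limma adjusted p = 0.144), but was called without SKOV3 miR-365a-3p replicate 1, which enters the common estimate of spread (limma adjusted p = 0.000637), and with the line fitted alone (limma adjusted p = 0.00111). COL12A1, a FACIT collagen on the surface of type I fibers, read 8.13 and 8.16 on the SKOV3 control arrays and 7.56, 7.49 and 7.48 with miR-365a-3p, a change of -0.63 (limma adjusted p = 3.2e-05). Its change of -0.12 in MDA-MB-231 cells, at the floor, kept the call in 10 of 20 alternative fits.

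**Figure D2:**
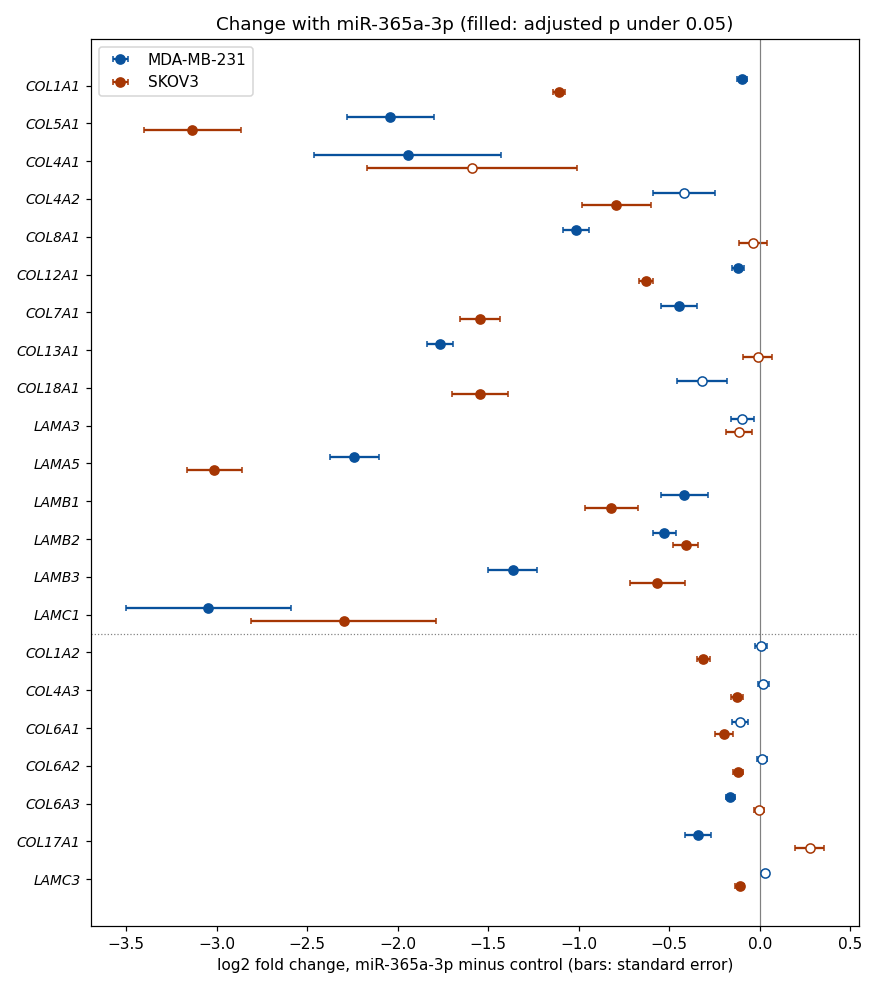
Log2 fold change with miR-365a-3p (horizontal axis, bars are standard errors) of 15 of the 16 genes with a group mean of 8 or more and, under the dotted line, of the 7 dim genes called in a line; filled points have an adjusted p under 0.05. The falls of LAMC1, LAMA5 and COL5A1 exceed 2 on the log2 scale in both lines, and no filled point lies to the right of 0.

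The remaining 39 genes had group means between 7.24 and 7.97 in all 4 groups. Their log2 fold changes ranged from -0.34 to 0.14 in the MDA-MB-231 line and from -0.31 to 0.28 in the SKOV3 line. Of these, COL6A3 and COL17A1 were called as lower in MDA-MB-231 cells, and COL1A2, COL4A3, COL6A1, COL6A2 and LAMC3 in SKOV3 cells. Type VI collagen, which forms beaded filaments around cells, was thus dim for all 5 of its genes. For 30 of the 39 genes nothing was called in any comparison, among them COL2A1 and COL9A1 of cartilage and LAMA1, LAMA2 and LAMA4.

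The difference of the change between the lines was called for 8 of the 55 genes. For 5 of them (9.09%) the change was more negative in SKOV3 cells, against 1.24% of all genes, and for 3 (5.45%) it was more negative in MDA-MB-231 cells, against 1.30%. COL1A1, COL7A1, COL12A1, COL18A1 and COL1A2 made up the first set, and COL13A1, COL8A1 and COL17A1 the second. The change in SKOV3 cells minus that in MDA-MB-231 cells was 1.75 for COL13A1 (limma adjusted p = 0.000136, standard error 0.11) and -1.01 for COL1A1 (limma adjusted p = 3.19e-05, standard error 0.044). Both kept the call in each of 19 alternative fits. Except for COL7A1, each of these genes was dim in both groups of the line with the smaller change, and the part of the floor in these differences was not tested. No laminin was called here, but LAMB3 and LAMC1 were without SKOV3 miR-365a-3p replicate 1, at 0.92 and 1.37 (limma adjusted p = 0.033 and 0.0314), and LAMA5 was without MDA-MB-231 control replicate 3, at -0.94 (limma adjusted p = 0.015). With a replicate block, 1 gene was called in either direction. Without SKOV3 control replicate 1 or control replicate 2, which leaves 1 control array, the first set was smaller, and the share of all genes was not counted.

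The control arrays give the signal of each matrix gene in each line. A dim reading does not show that a gene was not expressed. SKOV3 controls were higher than MDA-MB-231 controls for 14 of the 55 genes (25.5%), against 8.34% of all genes, and lower for 5 (9.09%), against 7.76%. These contrasts share the control arrays with the changes given above, so the values stand side by side only. The log2 difference, SKOV3 minus MDA-MB-231, was 1.78 for COL18A1, 1.46 for COL5A1, 1.08 for LAMB1 and 1.06 for COL1A1 (limma adjusted p = 8.38e-05, 0.00528, 0.000987 and 2.46e-07). It was 0.66 for LAMA3 (limma adjusted p = 0.000323), whose control mean was above 8 in SKOV3 cells only. For COL4A2, also among the 14, it was 0.66 (limma adjusted p = 0.0456), and the call was kept in 10 of 19 alternative fits.

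In the other direction, it was -2.79 for COL13A1 (limma adjusted p = 1.52e-07, standard error 0.080), -1.66 for COL8A1 (limma adjusted p = 2.67e-06, standard error 0.078) and -0.71 for LAMB3 (limma adjusted p = 0.0123). LAMB3 lost its call without SKOV3 control replicate 1 or 2 (limma adjusted p = 0.0726 and 0.0908). COL4A1 and LAMC1 had differences of 1.73 and 1.12 that were not called (limma adjusted p = 0.0848 and 0.226). Without SKOV3 miR-365a-3p replicate 1, which widens the common spread of these genes, both were called (limma adjusted p = 0.000508 and 0.0038), and without replicate 2, COL4A1 was (limma adjusted p = 0.0499). Both were also called with array weights (limma adjusted p = 0.0049 and 0.0214). COL4A1 was called too with an intensity trend and with only genes above the median mean (limma adjusted p = 0.0131 and 0.0424). In the other fits, 14 of 19 for COL4A1 and 17 of 19 for LAMC1, there was no call.

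**Figure D3:**
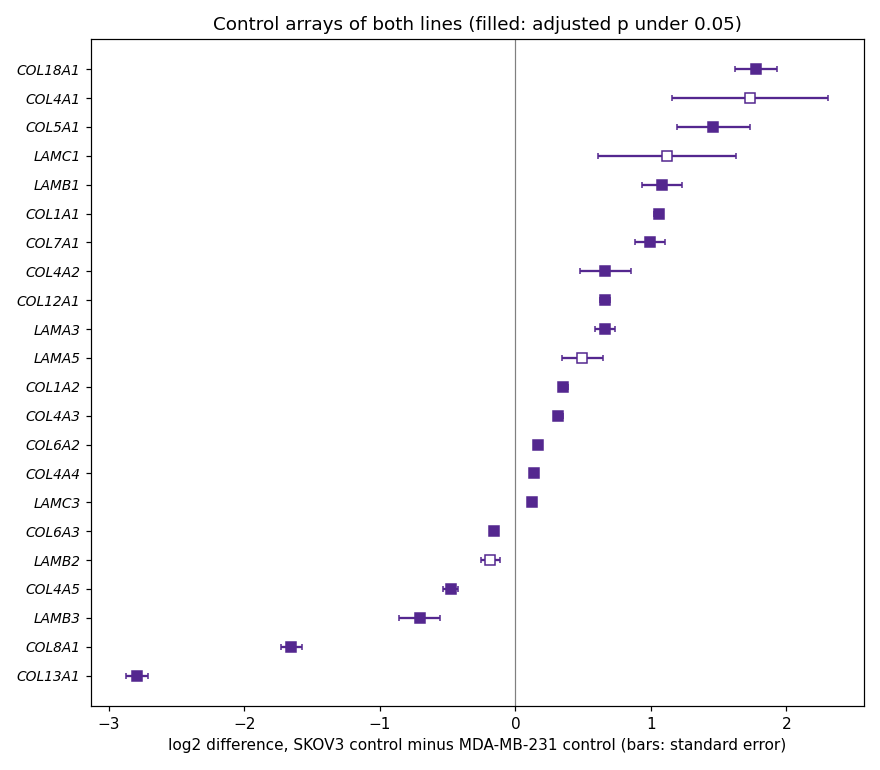
Log2 difference between the control arrays, SKOV3 minus MDA-MB-231 (horizontal axis, bars are standard errors), for 15 of the 16 genes with a group mean of 8 or more and others with a called difference; filled squares have an adjusted p under 0.05. COL13A1 and COL8A1 lie far to the left, and COL18A1 and COL5A1 to the right.

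Genes for enzymes and chaperones that fold, modify and process collagen moved in both directions. Of 32 measured genes, 11 fell, 3 rose and 18 were not called in MDA-MB-231 cells, and 7 fell, 1 rose and 24 were not called in SKOV3 cells. As given above, 11.7% of all genes fell and 14.4% rose in the first line, and 7.11% fell and 7.25% rose in the second. The medians of the list were -0.03 and -0.05 on the log2 scale. PLOD3, a lysyl hydroxylase, changed by -1.31 and -0.79 (limma adjusted p = 8.83e-05 and 0.0041), in the order MDA-MB-231 and SKOV3 cells. P4HA2, a catalytic subunit of prolyl 4-hydroxylase, changed by -0.73 and -0.84 (limma adjusted p = 0.00051 and 0.000944). P4HB, its other subunit, changed by -0.69 and -0.52 (limma adjusted p = 0.000651 and 0.00863), and in SKOV3 cells not on the deposited values (limma adjusted p = 0.0505) or without control replicate 1 or 2 (limma adjusted p = 0.0744 and 0.0564). TMEM38B, an ion channel of the endoplasmic reticulum, rose by 0.91 and 0.73 (limma adjusted p = 0.00181 and 0.0176), but not in SKOV3 cells without control replicate 1 or 2 (limma adjusted p = 0.124 and 0.0892). SERPINH1, the collagen chaperone named here after its values were seen, had differences of 0.17 and 0.16 (limma adjusted p = 0.413 and 0.6).

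Among 17 partners of the basement membrane, 4 fell and 2 rose in MDA-MB-231 cells, and 5 fell and 2 rose in SKOV3 cells. These counts stand beside the same shares of all genes, and the medians were 0.01 and -0.003. PXDN, the peroxidase that cross-links type IV collagen, changed by -2.44 in the MDA-MB-231 line (limma adjusted p = 2.14e-05) and by -0.76 in SKOV3 cells (limma adjusted p = 0.022), there not without control replicate 2 (limma adjusted p = 0.201). AGRN, a heparan sulfate proteoglycan that binds laminin, changed by -0.33 and -1.09 (limma adjusted p = 0.00189 and 1.8e-05). It was dim in both MDA-MB-231 groups, with means of 7.88 and 7.55. FBLN1, a fibulin, changed by -0.10 and -0.45. Its change in MDA-MB-231 cells was at the floor and lost its call without miR-365a-3p replicate 3 or control replicate 2 or 3 (limma adjusted p = 0.0532, 0.0528 and 0.062). NTN4, a laminin-related netrin, rose by 0.55 and 0.29 (limma adjusted p = 0.000508 and 0.0342), but on the deposited values by 0.21 and 0.02 with no call in either line (limma adjusted p = 0.0915 and 0.948). The SKOV3 call was also lost without control replicate 1 or 2 (limma adjusted p = 0.233 and 0.103), and without any of 5 other arrays. NID2, a nidogen that links laminin to type IV collagen, was named after its values were seen. It changed by -1.88 in SKOV3 cells (limma adjusted p = 2.8e-06) and was dim in MDA-MB-231 cells.

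Of 20 receptors of collagens and laminins, 7 fell and 1 rose in MDA-MB-231 cells, and 3 fell and 2 rose in SKOV3 cells. The medians were -0.13 and -0.03, and these counts too stand beside the same shares of all genes. DAG1, dystroglycan, which binds laminin, changed by -0.87 and -1.04 (limma adjusted p = 4.3e-05 and 6.64e-05). ITGB4, an integrin chain of hemidesmosomes, changed by -0.29 and -0.44, and DDR1, a collagen receptor kinase, by -0.11 and -0.17, both dim in every group. SDC2, a syndecan, rose by 0.26 and 0.43 (limma adjusted p = 0.000393 and 0.000109), and was called in neither line on the deposited values (limma adjusted p = 0.998 and 0.121). It was dim in both MDA-MB-231 groups, with means of 7.60 and 7.86. ITGA2, the alpha chain of a collagen-binding integrin and named after its values were seen, changed by -2.64 in MDA-MB-231 cells (limma adjusted p = 7.41e-07) and was dim in SKOV3 cells.

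**Figure D4:**
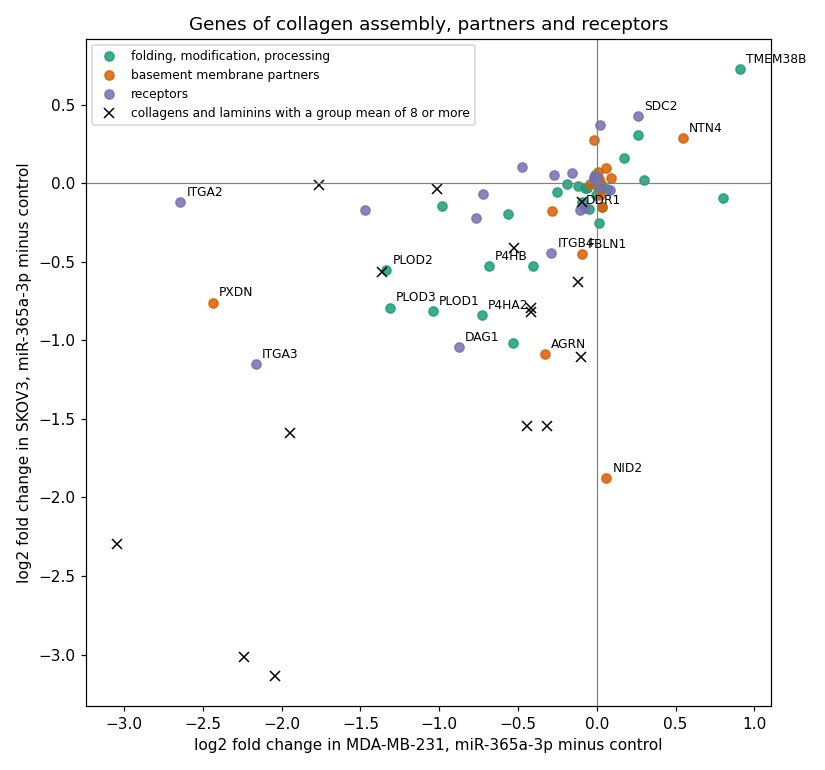
Log2 fold change with miR-365a-3p in MDA-MB-231 cells (horizontal axis) and SKOV3 cells (vertical axis) of genes for collagen folding, modification and processing, basement membrane partners and receptors (circles), with 15 of the 16 collagens and laminins that have a group mean of 8 or more (crosses). The crosses lie at or below 0 on both axes, and TMEM38B, NTN4 and SDC2 are in the upper right.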

How the data were processed

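Expression was measured on 11 Illumina BeadChips in 4 groups taken from the sample labels. The authors labelled cRNA with biotin, quantile normalized with lumi and deposited 1 log2 value per gene symbol. Whether that scale is plain log2 or variance-stabilized, how probes were combined and whether background was subtracted are not given in the sources used here. The deposited columns differed in distribution, so they were quantile normalized again. A model with 4 group means was fitted to 31325 genes in limma 3.58.1 (R 4.3.3), with eBayes and Benjamini-Hochberg adjustment (threshold 0.05). The code of the fit was run on simulated data with independent noise. These had no floor, outlying array or wider shift with treatment, so how the fit handles those was not tested.

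Collagen and laminin genes named with values have a mean of 8 or more in a group, and other members called in a treatment comparison are named by symbol. Outside this rule, values of COL1A2, COL3A1, COL4A5, COL4A6 and COL17A1 were given after they were seen. The values of 1 of these genes are not reported here, while the counts include it. From each of 3 lists of related genes, up to 3 falls and 3 rises called in both lines are named, by mean change. Members, lists and tests were chosen with earlier results of these data known. COL29A1 is now COL6A5. Promoter windows were matched for 40 members. A planned comparison with protein length was not run, since no protein table was used. The number of arrays limits the precision. Alternatives were other normalizations, variance models, thresholds and filters, a replicate block, each line alone and each array left out.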

Additional observations from a re-analysis of the deposited data

Results flagged for a closer look

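The change with miR-365a-3p differed between the lines for 8 collagen genes by limma's test of the difference in the fit to all arrays. No laminin gene was called there. Of the laminins, LAMB3 was called in 3 of 19 alternative fits, LAMC3 in 6 of 18, LAMA5 in 1 (without MDA-MB-231 control replicate 3) and LAMC1 in 1 (without SKOV3 miR-365a-3p replicate 1). The change in SKOV3 cells minus that in MDA-MB-231 cells was -0.51 for COL12A1, -1.23 for COL18A1, -1.01 for COL1A1, -0.32 for COL1A2 and -1.10 for COL7A1 (limma adjusted p = 0.00168, 0.0194, 3.19e-05, 0.0126 and 0.0066). It was 1.75 for COL13A1, 0.62 for COL17A1 and 0.98 for COL8A1 (limma adjusted p = 0.000136, 0.0211 and 0.00224). COL7A1 read above 8 in all 4 groups. COL17A1 and COL1A2 were dim in all 4 groups.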

How the results depend on the processing

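The number of genes that fell in MDA-MB-231 cells, 14, was between 10 and 17 under all 20 alternatives, and the counts between the controls, 14 and 5, were between 12 and 16 and between 4 and 7. In SKOV3 cells the number that fell, 16, was 9 with each cell line fitted alone, 9 at an adjusted p under 0.01, and between 7 and 16 with single arrays left out. The number of rises in MDA-MB-231 cells, 0, was 2 after median centring (COL19A1 and LAMC3), 1 with a replicate block, 1 with an intensity trend and robust hyperparameters and 1 with array weights, all dim genes. In SKOV3 cells it was 1 after cyclic loess, with only genes above the median mean, with the intensity trend and with array weights, each time COL17A1, and 0 to 2 with single arrays left out (COL17A1 and COL5A2 without miR-365a-3p replicate 1). For the difference between lines, 5 genes more negative in SKOV3 cells became 8 on the deposited values, after median centring and after cyclic loess, 3 at an adjusted p under 0.01, 1 with the replicate block and 3 to 6 with single arrays left out. The 3 in the other direction became 1 with the replicate block, 5 with array weights and 2 to 5 with single arrays left out. The deviations of same-numbered arrays from their group means were compared over 6853 genes. Their correlations were -0.125, 0.0424 and 0.232 in MDA-MB-231 cells and 0.0391 and -0.073 in SKOV3 cells. With so few arrays per group and no differently numbered arrays set beside them, these values do not decide whether the replicate numbers pair arrays. With the replicate block, 10 genes fell in the breast line and 11 in the ovarian line, and 14 and 5 differed between the controls. No called change with miR-365a-3p of a collagen or laminin gene, in a line or between the lines, changed sign. COL4A5 changed by 0.09 in MDA-MB-231 cells, not called (limma adjusted p = 0.289), but by -0.21 on the deposited values (limma adjusted p = 0.0208). PCOLCE2, of the collagen processing list and named after its values were seen, rose by 0.30 in MDA-MB-231 cells (limma adjusted p = 0.00895). On the deposited values its change was -0.01 and not called (limma adjusted p = 0.967). Calls kept under every alternative numbered 9 of 14 for the breast line, 7 of 16 for the ovarian line and 2 of 8 for the difference. The cause of the lost calls was not tested.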
